A study of Homo sapiens with 12 samples.

Results

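The genes described here encode the proteins of the mitochondrial ribosome. They were taken as all rows of the raw count table whose symbol is MRPL or MRPS followed by a number, with an optional final A, B or C for MRPS. The rule gave 76 genes of the 53717 in the table, 47 with a large subunit symbol (MRPL) and 29 with a small subunit symbol (MRPS). The RNA came from H9, an established line of human embryonic stem cells, held in RSeT medium, which per the labels keeps them in a naive state. Cells of all 3 groups received 25 nM of a fluorescein-labelled oligonucleotide by lipofection. The ASO-L1 group received an antisense oligonucleotide against LINE1, a family of transposons, the sO-L1 group the corresponding sense oligonucleotide, and the ASO-Ctr group an antisense oligonucleotide with no specific target. There were 12 libraries, 4 per group, numbered 1 to 4. Cells of every group also received 0.7 uM trans-ISRIB, 5 uM emricasan and 10 uM of the ROCK inhibitor Y-27632, removed after 24 h, and labelled cells were sorted at 48 h. The results therefore come from 1 cell line and from the cells that took up the label, and the sources used here do not state whether the 4 replicates were separate cultures, so p-values measure the spread between these libraries, which may be technical.

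Mitochondrial ribosomes translate the few mRNAs encoded by the mitochondrial genome, all of them for subunits of the respiratory chain and ATP synthase. The ribosomal RNAs are made in the mitochondrion, whereas every ribosomal protein is encoded in the nucleus, made in the cytosol and imported. Some of the proteins have a counterpart in the bacterial ribosome and others are found only in mitochondrial ribosomes, where many of them lie at the surface. Symbols do not always follow the structure. MRPS18A and MRPS30 encode proteins that sit in the large subunit, and the MRPS36 product belongs to the 2-oxoglutarate dehydrogenase complex.

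Libraries held 22.8 to 55.1 M counts, and no row of the table counts LINE1, so the targeted RNA could not be checked in these values. All 8 pluripotent stem cell markers were present at 1 CPM or more, and their summed level in CPM (counts relative to the library total) was 7370 to 7650 in ASO-L1, 7470 to 7960 in sO-L1 and 7500 to 7780 in ASO-Ctr. Markers of naive cells summed to 109 to 144 CPM in ASO-L1, 80.9 to 105 in sO-L1 and 74.9 to 93.6 in ASO-Ctr. Those of primed cells summed to 210 to 239, 123 to 154 and 144 to 179 CPM in ASO-L1, sO-L1 and ASO-Ctr. Fibroblast markers (2 of 5 at 1 CPM or more, LUM at 0) summed to 43.6 to 57.8 CPM in ASO-L1, 58.3 to 84 in sO-L1 and 62.5 to 85.5 in ASO-Ctr. Neural markers (1 of 2 at 1 CPM or more) summed to 2.44 to 4.29 CPM in ASO-L1, 1.12 to 2.16 in sO-L1 and 1.29 to 2.11 in ASO-Ctr. The summed levels of naive, primed and neural markers were thus higher in every ASO-L1 library than in any other, and that of fibroblast markers lower. A sum can rest largely on 1 gene. The highest value of a single marker was 59.4 CPM for naive, 124 for primed, 4.07 for neural and 69.6 for fibroblast markers. Trophectoderm markers reached at most 2.15 CPM with CDX2 at 0, and blood markers at most 0.097 CPM. The part of these shifts in the differences below was not tested, and in bulk RNA fewer cells of a type and less RNA per cell cannot be told apart.

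Promoters of these genes are compact and carry short motifs of a few activators, so 4 of them are printed as examples. The sequences are from RefSeq (build GRCh38.p14) and run from 250 bases before the gene start to 50 after it, 5′ to 3′ on the strand of the gene. MRPL20 (chr1:1407244-1407543, minus strand) was the most increased large subunit gene and MRPS21 (chr1:150293611-150293910, plus strand) an increased small subunit gene, and each has 2 copies of CCGGAAG, a binding motif of ETS factors such as GABP. MRPL32 (chr7:42932126-42932425, plus strand) was increased and has AAGATGGCG, a binding motif of YY1. MRPL1 (chr4:77862580-77862879, plus strand) was the most decreased large subunit gene and has no exact copy of either. Only exact letters were searched, so near matches such as aacatggcg in MRPL1 and aaaatggcg in MRPL32 are not marked. Capitals mark the motif on either strand, so that CTTCCGG is the ETS motif read from the other strand.
MRPL20: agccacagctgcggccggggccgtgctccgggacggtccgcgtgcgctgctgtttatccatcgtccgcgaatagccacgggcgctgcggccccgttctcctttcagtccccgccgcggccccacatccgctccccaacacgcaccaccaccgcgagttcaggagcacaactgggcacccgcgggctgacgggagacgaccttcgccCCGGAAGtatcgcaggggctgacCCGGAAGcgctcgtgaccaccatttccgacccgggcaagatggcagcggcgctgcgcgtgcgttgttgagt
MRPS21: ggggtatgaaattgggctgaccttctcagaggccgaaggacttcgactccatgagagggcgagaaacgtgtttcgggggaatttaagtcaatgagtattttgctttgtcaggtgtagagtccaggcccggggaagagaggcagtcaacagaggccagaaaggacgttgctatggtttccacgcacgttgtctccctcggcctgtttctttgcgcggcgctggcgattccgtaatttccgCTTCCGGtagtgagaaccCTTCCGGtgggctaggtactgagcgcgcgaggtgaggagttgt
MRPL32: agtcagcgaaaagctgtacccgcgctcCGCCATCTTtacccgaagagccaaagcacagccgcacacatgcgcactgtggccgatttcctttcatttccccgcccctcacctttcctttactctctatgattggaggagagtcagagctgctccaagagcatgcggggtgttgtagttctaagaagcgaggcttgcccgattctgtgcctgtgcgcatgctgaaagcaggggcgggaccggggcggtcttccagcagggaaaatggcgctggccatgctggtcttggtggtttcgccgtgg
MRPL1: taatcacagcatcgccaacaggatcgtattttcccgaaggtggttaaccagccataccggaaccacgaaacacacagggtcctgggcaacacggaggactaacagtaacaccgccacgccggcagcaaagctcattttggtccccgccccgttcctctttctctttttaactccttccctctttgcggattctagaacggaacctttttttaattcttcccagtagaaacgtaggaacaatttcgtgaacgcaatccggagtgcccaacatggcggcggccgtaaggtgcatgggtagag
The ETS motif lay at -44 to -38 and -21 to -15 in MRPL20, counting from the gene start, and at -11 to -5 and 8 to 14 in MRPS21. The YY1 motif lay at -223 to -215 in MRPL32, on the strand opposite to the gene. In the other member promoters that held this motif, it lay between -98 and 44.

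RefSeq promoters were found for 67 of the 76 genes. On either strand, 28 of the 67 promoters (41.8%) held the 7 letters CCGGAAG, against 15.2% of the 15993 promoters of genes tested and 10.3% of all 35116 promoters of the same length. AAGATGGCG was in 13 (19.4%), against 3.06% and 1.75%. An NRF1 motif, the 5 letters GCGCA followed by their reverse complement, was in 1 (1.49%, MRPL17), against 1.77% and 1.24%. In 24 of the 28 promoters an ETS motif lay within 100 bases before to 50 after the start, 37 promoters held an ETS or a YY1 motif, and in 0 did the 2 motifs overlap. Large and small subunit genes had similar shares, with the ETS motif in 16 of 40 (40%) and 12 of 27 (44.4%). These are matches of letters, not shown to be sites.

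Nearly all of the genes were expressed in every library. Of the 76 genes, 75 passed the filter on low counts, and the exception was MRPL30 (uL30m), with 1 to 6 reads per library. To compare genes, levels were divided by the length of the principal transcript in GENCODE v29. The median over the 46 large subunit genes that passed was 38.9 CPM per kb in ASO-L1, 38.2 in sO-L1 and 39.3 in ASO-Ctr. The median over the 29 small subunit genes was 32.1, 28.9 and 29.3 CPM per kb in ASO-L1, sO-L1 and ASO-Ctr. MRPL3 (uL3m, near the peptidyl transferase centre) was the highest large subunit gene, at 158 CPM per kb in ASO-L1 and 148 in ASO-Ctr, and MRPS34, a mitochondria-specific protein, the highest small subunit gene, at 120 in both. Of the genes that passed the filter, MRPL38 was the lowest of the large subunit, at 1.48 CPM per kb in ASO-L1 and 1.19 in ASO-Ctr. MRPS24 (uS3m, in the head of the small subunit) was the lowest of the small subunit, at 0.454 and 0.242 CPM per kb in ASO-L1 and ASO-Ctr, on 2 to 19 reads per library. MRPL30, under the filter, was lower than both, at 0.0426 CPM per kb in ASO-L1 and 0.0303 in ASO-Ctr. MRPS24, MRPL53, MRPL38, MRPL30 and MRPL46 share 23.2%, 45.2%, 37.5%, 19.5% and 11.3% of their exon bases with another gene on the same strand. These overlaps, from GENCODE v29, make the levels of these genes uncertain. On the opposite strand MRPS18A, MRPS18C, MRPL43, MRPL9 and MRPS25, among others, share 47%, 40.2%, 36.9%, 33.2% and 22.2%. Whether such reads were counted is not known, as the strand setting is not given.

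The first comparison asked how the genes differed between cells given the antisense oligonucleotide against LINE1 and cells given the non-targeting one. More large subunit genes were higher in ASO-L1 than lower, whereas small subunit genes were split. Of the 46 large subunit genes, 18 were higher in ASO-L1 (39.1%) and 3 lower (6.52%), and of the 29 small subunit genes 7 were higher (24.1%) and 6 lower (20.7%), in edgeR's quasi-likelihood test at an adjusted p under 0.05. Over all 17264 genes tested, 21.2% were higher and 23.1% lower (44.3% in either direction), so the small subunit shares are near the background. The median log2 fold change was 0.11 for large and 0.01 for small subunit genes, against 0.00 for all genes, and it was positive for 35 of 46 large and 17 of 29 small subunit genes.

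The differences were small, and the number of higher genes depended on single libraries. The 25 higher genes differed 1.1- to 1.4-fold (median 1.16-fold) and the 9 lower genes 1.12- to 1.58-fold. In 19 of the 25 higher genes and in 6 of the 9 lower ones the ASO-L1 and ASO-Ctr libraries did not overlap, against 70.9% of all 3668 higher genes and 69% of all 3984 lower genes; of all genes tested, called or not, 16.3% lay wholly higher and 17% wholly lower. The direction was the same in all 4 replicate numbers in 24 of 25 and 9 of 9, against 94% and 96.2% of all higher and lower genes. When each of the 12 libraries and each of the 4 replicate numbers was left out in turn, 11 of the 25 higher genes and 8 of the 9 lower genes were called every time, against 63% of all higher and 66% of all lower genes. Without replicate number 2, 8 of 46 large subunit genes were higher (17.4%, against 16.3% of all genes), and without number 3, 11 were (23.9%, against 15.9%). Without ASO-L1 replicate 2 the count was 9 (19.6%, against 17.9% of all genes) and without ASO-Ctr replicate 2 it was 10 (21.7%, against 17.1%). Without ASO-L1 replicate 1, in which most of the genes had their lowest ASO-L1 level, 26 large (56.5%) and 10 small (34.5%) subunit genes were higher, against 21.2% of all genes. The surplus of higher large subunit genes over the background therefore rests in part on replicate number 2.

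MRPL20 (bL20m), whose bacterial counterpart is an early binder of the ribosomal RNA, had the largest increase of the members called. It measured 108, 98.3, 101 and 99.8 CPM in ASO-L1 replicates 1 to 4, 78.4, 68.2, 73.3 and 73.0 in sO-L1, and 80.3, 65.1, 70.9 and 75 in ASO-Ctr. Every ASO-L1 library lay above every library of the other groups. The level was 1.4-fold higher than in ASO-Ctr (95% interval 1.31 to 1.5, log2 fold change 0.49 ± 0.045 SE, adjusted p 3.49e-07 in edgeR), and 10.5% of its exon bases are shared with a 7SL RNA pseudogene on the same strand. MRPL47 (uL29m), whose bacterial counterpart lies at the exit of the peptide tunnel, measured 108, 97.7, 104 and 97.8 CPM in ASO-L1, 81.7, 70.8, 78.6 and 83.4 in sO-L1, and 79.8, 70.2, 79.6 and 81.2 in ASO-Ctr. It too had no overlap between ASO-L1 and the others and was 1.31-fold higher than in ASO-Ctr (1.22 to 1.41, adjusted p 5.44e-06 in edgeR). MRPL2 (uL2m, near the peptidyl transferase centre) measured 56.4, 57.6, 68.4 and 59.1 CPM in ASO-L1 and 54.2, 47.1, 44.4 and 46.8 in ASO-Ctr, 1.26-fold higher (1.13 to 1.4, adjusted p 0.00142 in edgeR). The groups did not overlap, but replicate number 1 was the narrowest pair. MRPL37 (mL37, mitochondria specific) measured 140, 136, 146 and 147 CPM in ASO-L1 and 114, 106, 115 and 121 in ASO-Ctr, 1.25-fold higher (1.17 to 1.33, adjusted p 1.72e-05 in edgeR).

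**Figure D1:**
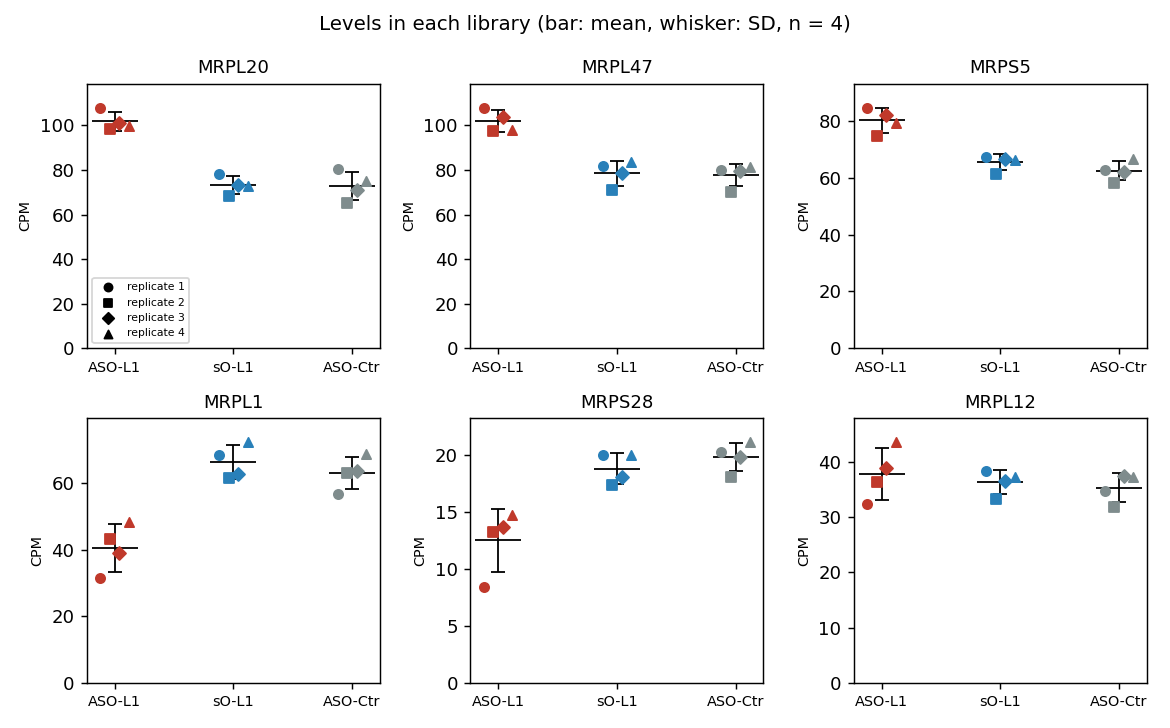
Level (CPM with TMM scaling; axes start at 0) of 6 genes in each library of ASO-L1, sO-L1 and ASO-Ctr. Points are libraries, with the shape giving the replicate number, and bars and whiskers are the mean and SD of 4. MRPL20, MRPL47 and MRPS5 are higher in every ASO-L1 library than in any other, MRPL1 and MRPS28 are lower in every ASO-L1 library, with replicate 1 lowest, and MRPL12 overlaps between the groups.

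The central protuberance is a feature of the large subunit that faces the small subunit. Of 5 members taken here as parts of it, 3 were higher and none lower, against 21.2% higher and 23.1% lower of all genes. Of 4 members placed near the peptidyl transferase centre 2 were higher and 0 lower. Of 5 placed at the peptide tunnel 1 was higher and 1 lower. Of 5 placed in the head of the small subunit 0 were higher and 1 lower. These sets hold only genes with an MRPL or MRPS symbol and may not be complete. The differences between these places, each with few genes, were not tested. MRPL40 measured 24.1 ± 0.919 CPM in ASO-L1, 20.1 ± 0.562 in sO-L1 and 19.4 ± 0.993 in ASO-Ctr (mean ± SD, n = 4), 1.24-fold higher than in ASO-Ctr (1.13 to 1.35, adjusted p 0.000515 in edgeR). MRPL48 measured 30.4 ± 0.583 CPM in ASO-L1 and 26.7 ± 1.94 in ASO-Ctr, 1.14-fold higher (1.05 to 1.24, adjusted p 0.011 in edgeR). MRPL46 measured 9.19, 8.07, 6.77 and 7.13 CPM in ASO-L1 and 7.15, 5.75, 5.32 and 6.23 in ASO-Ctr. Its groups overlap, and the 1.27-fold difference (1.1 to 1.48, adjusted p 0.00979 in edgeR) was called in 14 of 16 leave-outs and had an adjusted p of 0.0633 without the replicate block. MRPL38 had a log2 fold change of 0.31 (adjusted p 0.0858 in edgeR) and MRPL18 (uL18m) one of 0.06 (adjusted p 0.376). MRPL18 measured 89.2 ± 4.12 CPM in ASO-L1 and 86.0 ± 5.43 in ASO-Ctr.

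The other 11 higher large subunit genes were MRPL54, MRPL9, MRPL42, MRPL32, MRPL55, MRPL4, MRPL36, MRPL39, MRPL43, MRPL27 and MRPL15, at 1.1- to 1.2-fold. MRPL32, whose product is matured by the m-AAA protease before it enters the ribosome, measured 109 ± 2.87 CPM in ASO-L1 and 94.1 ± 4.73 in ASO-Ctr, 1.16-fold higher (adjusted p 0.00115 in edgeR). MRPL36 (bL36m) measured 26.7 ± 2.69 CPM in ASO-L1 and 23.2 ± 1.76 in ASO-Ctr, 1.15-fold higher, with overlapping groups, an adjusted p of 0.0305 in edgeR and of 0.0689 without the replicate block. By origin, 9 of 18 large subunit genes for mitochondria-specific proteins were higher (50%) and 1 lower (5.56%). Of 28 for proteins with a bacterial counterpart, 9 were higher (32.1%) and 2 lower (7.14%), against 21.2% and 23.1% of all genes. Among small subunit genes 25% were higher in both classes (3 of 12 mitochondria-specific, 4 of 16 bacterial), and 16.7% and 25% were lower. The difference between these 2 classes was not tested.

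The 3 large subunit genes that fell were MRPL1, MRPL17 and MRPL44. MRPL1 (uL1m), part of the stalk that guides the leaving tRNA, measured 31.5, 43.1, 39.0 and 48.4 CPM in ASO-L1, 68.5, 61.4, 62.6 and 72.2 in sO-L1, and 56.7, 62.9, 63.7 and 68.6 in ASO-Ctr. All ASO-L1 libraries were below all others, replicate 1 lowest, and the level was 1.56-fold lower than in ASO-Ctr (1.4 to 1.74, adjusted p 3.86e-06 in edgeR). MRPL17 (bL17m) measured 41.2, 55.1, 56.5 and 58.4 CPM in ASO-L1 and 63.7, 58.9, 63.6 and 68.7 in ASO-Ctr, 1.21-fold lower (1.08 to 1.35, adjusted p 0.0088 in edgeR). Its groups did not overlap, but outside replicate 1 the gap was narrow. MRPL44, a protein with an RNase III-like fold near the tunnel exit, measured 51.4, 61.0, 62.8 and 61.8 CPM in ASO-L1 and 67.2, 67.6, 70.5 and 71.1 in ASO-Ctr, 1.17-fold lower (1.07 to 1.27, adjusted p 0.00416 in edgeR).

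The factor-binding stalk and the membrane anchor did not pass the test in either direction. MRPL12 (bL12m), which forms the flexible stalk and is also known to bind the mitochondrial RNA polymerase, measured 32.4, 36.3, 38.9 and 43.5 CPM in ASO-L1 and 34.8, 31.8, 37.4 and 37.2 in ASO-Ctr. The groups overlap (fold 1.07, 0.971 to 1.18, adjusted p 0.245 in edgeR), and 68.2% of its exon bases are shared with another annotated gene on the same strand. MRPL11 (uL11m), at the stalk base, had a fold of 1.03 (0.948 to 1.12). MRPL10 (uL10m), its neighbour there, had a fold of 0.929 (0.856 to 1.01). MRPL45 (mL45), which anchors the ribosome to the inner membrane, measured 63.4 ± 4.17 CPM in ASO-L1 and 65.7 ± 2.91 in ASO-Ctr (fold 0.966, 0.883 to 1.06). MRPL41 (mL41) measured 42.6 ± 2.09 and 40.1 ± 3.3 CPM in ASO-L1 and ASO-Ctr, and MRPL3 270 ± 14.3 and 252 ± 15.8 CPM, with a fold of 1.07 (1 to 1.14, adjusted p 0.0913 in edgeR).

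Among small subunit genes, MRPS5 (uS5m, at the mRNA entry) had the largest increase of those called. It measured 84.7, 74.7, 82.2 and 79.4 CPM in ASO-L1, 67.3, 61.5, 66.7 and 66.4 in sO-L1, and 62.8, 58.3, 62.0 and 66.7 in ASO-Ctr. ASO-L1 libraries lay above all others, at 1.28-fold over ASO-Ctr (1.2 to 1.37, adjusted p 9.47e-06 in edgeR). MRPS21 (bS21m) measured 153, 146, 150 and 155 CPM in ASO-L1, 139, 121, 123 and 123 in sO-L1, and 138, 119, 123 and 124 in ASO-Ctr, again without overlap, 1.2-fold higher than in ASO-Ctr (1.13 to 1.28, adjusted p 0.000123 in edgeR). MRPS22 (mS22) measured 49.5, 47.3, 50.3 and 51.7 CPM in ASO-L1 and 42.0, 38.1, 37.2 and 48.5 in ASO-Ctr. ASO-Ctr replicate 4 lay within the ASO-L1 range, and the fold was 1.2 (1.1 to 1.31, adjusted p 0.00172 in edgeR). MRPS12 (uS12m), at the decoding site, was 1.13-fold higher (1.04 to 1.22, adjusted p 0.0142 in edgeR and 0.0623 without the replicate block), with overlapping groups. MRPS23, MRPS2 and MRPS25 made up the rest, at 1.12- to 1.13-fold.

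The 6 small subunit genes that fell were MRPS28, MRPS6, MRPS35, MRPS11, MRPS9 and MRPS27. MRPS28 (bS1m) measured 8.43, 13.2, 13.7 and 14.7 CPM in ASO-L1, 20, 17.4, 18.1 and 20 in sO-L1, and 20.3, 18.1, 19.8 and 21.1 in ASO-Ctr. Every ASO-L1 library was below every other, replicate 1 by most, and the level was 1.58-fold lower than in ASO-Ctr (1.34 to 1.86, adjusted p 0.000139 in edgeR), with 35.8% of exon bases shared with another annotated gene on the same strand. MRPS35 (mS35) measured 66.6, 87.2, 90.0 and 94.8 CPM in ASO-L1 and 90.1, 95.6, 105 and 115 in ASO-Ctr, 1.2-fold lower (1.1 to 1.31, adjusted p 0.00233 in edgeR). MRPS6 (bS6m) measured 33.1, 44, 45.7 and 49.6 CPM in ASO-L1 and 42.2, 51.7, 54.7 and 58.3 in ASO-Ctr, 1.2-fold lower (1.1 to 1.31, adjusted p 0.00207 in edgeR). For both genes the groups overlapped but ASO-L1 was lower within each replicate number, and for MRPS6 the adjusted p was 0.0718 without the replicate block. MRPS11 (uS11m, on the platform) was 1.18-fold lower and MRPS9 (uS9m, in the head) 1.16-fold lower. MRPS27, a pentatricopeptide repeat protein, measured 94.6 ± 3.61 CPM in ASO-L1 and 106 ± 4.05 in ASO-Ctr, 1.12-fold lower (1.06 to 1.2, adjusted p 0.00397 in edgeR).

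The 3 paralogues of bacterial bS18 gave no call. MRPS18A, of the large subunit by structure, measured 17.4 ± 2.1 CPM in ASO-L1 and 16.3 ± 1.18 in ASO-Ctr (fold 1.07, 0.937 to 1.23). MRPS18B had a fold of 1.01 (0.921 to 1.11) and MRPS18C one of 1.01 (0.913 to 1.12). MRPS30, also of the large subunit by structure, measured 119 ± 6.62 CPM in ASO-L1 and 111 ± 4.35 in ASO-Ctr (fold 1.07, 1.01 to 1.14, adjusted p 0.0692 in edgeR). MRPS34 had 123 CPM in both groups (SD 5.51 in ASO-L1 and 11.2 in ASO-Ctr), and MRPS36 had 25.6 ± 1.42 CPM in ASO-L1 and 27.3 ± 1.36 in ASO-Ctr (fold 0.938, 0.862 to 1.02, adjusted p 0.214 in edgeR). MRPS24 had the largest fold change of all members (log2 0.91 ± 0.5 SE) but an adjusted p of 0.151 in edgeR, on few reads.

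**Figure D2:**
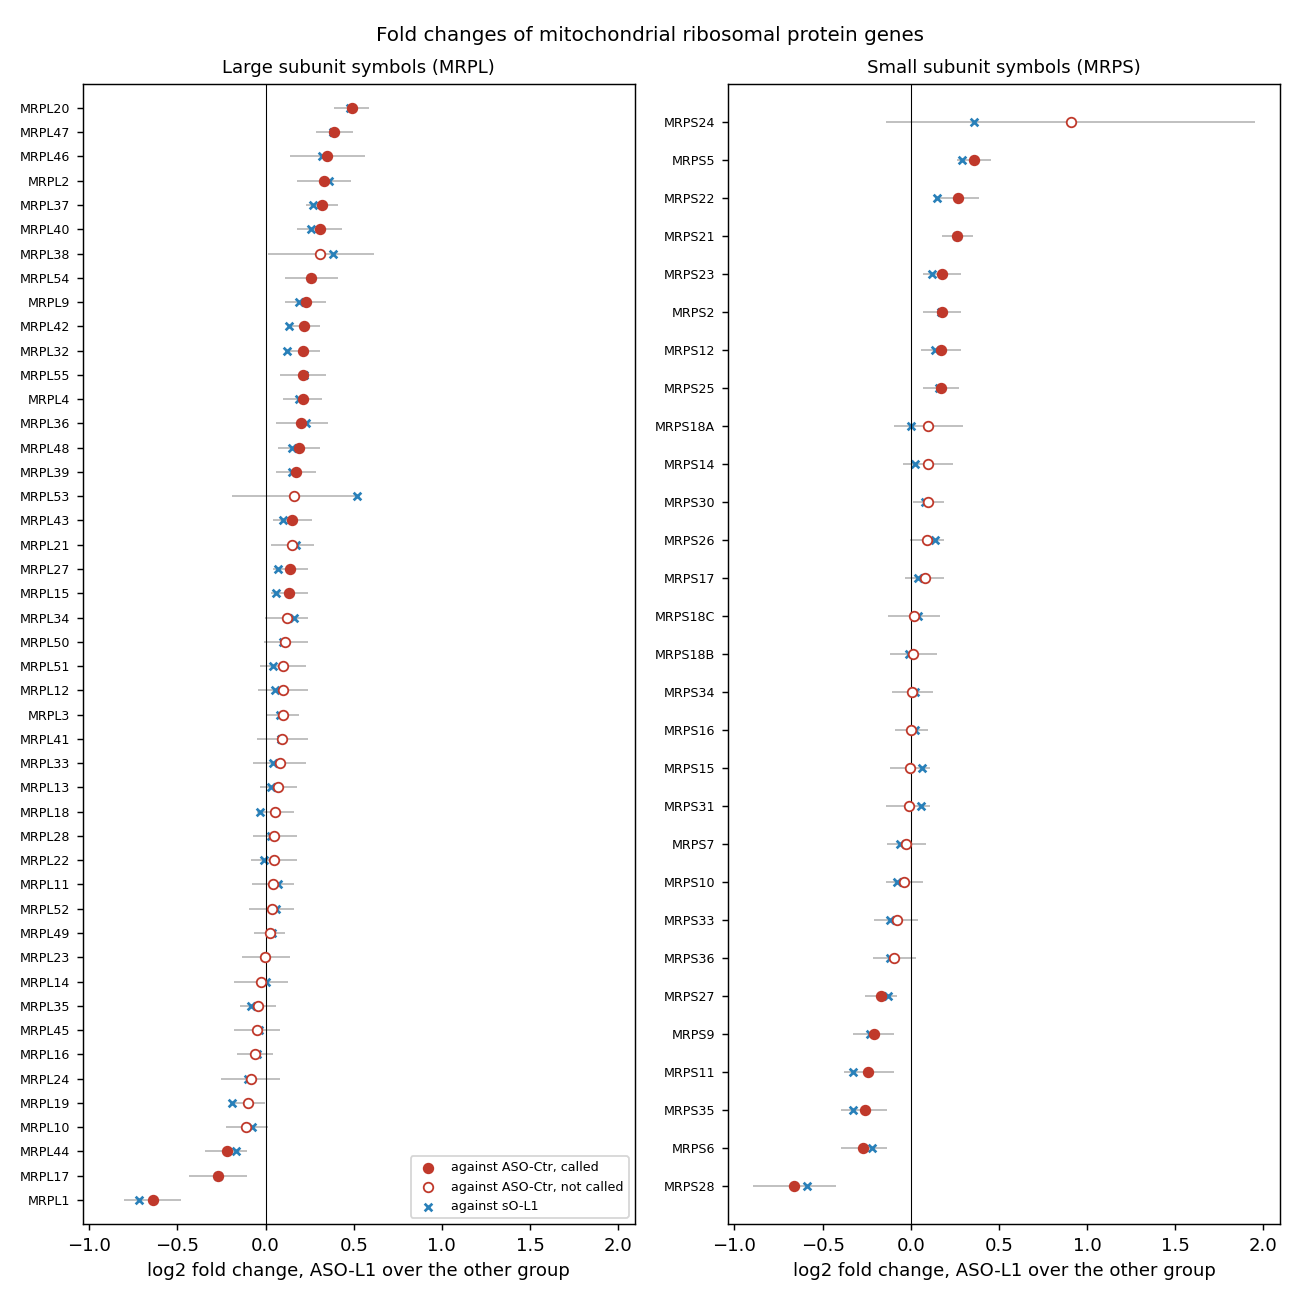
Log2 fold change of the 75 tested genes, large subunit symbols left and small subunit symbols right, sorted. Circles and lines give ASO-L1 over ASO-Ctr with 95% intervals, filled where called, and crosses give ASO-L1 over sO-L1. Of 46 large subunit genes 18 are filled to the right of 0 and 3 to the left, and of 29 small subunit genes 7 and 6.

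The contrast of the subunits was measured as the mean log2 difference of large subunit genes minus that of small subunit genes, within each replicate number. For ASO-L1 against ASO-Ctr it was 0.104, 0.106, 0.054 and 0.034 in numbers 1 to 4 (mean 0.074 ± 0.036 SD), positive in 4 of 4. The large subunit genes alone differed by 0.016, 0.172, 0.123 and 0.076, and the small subunit genes by -0.088, 0.067, 0.07 and 0.042. Replicate number 1 was thus the lowest for both subunits, while the gap between them was not lowest there. Against sO-L1 the large subunit genes differed by -0.052, 0.152, 0.136 and 0.107, and the gap was 0.099, 0.11, 0.117 and 0.018, while between sO-L1 and ASO-Ctr it was 0.006, -0.004, -0.064 and 0.015. Since ASO-L1 is shared by the first pair of comparisons, they are not independent.

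Of the 75 genes, 3 had a mean under 5 CPM. Among the 72 genes with a mean of at least 5 CPM (44 large, 28 small, a limit chosen after seeing the data), the gap was 0.102, 0.11, 0.079 and 0.076 against ASO-Ctr and 0.097, 0.087, 0.079 and 0.088 against sO-L1. Between sO-L1 and ASO-Ctr it was 0.006, 0.023, 0.001 and -0.011. All tested genes were also placed by structure (MRPS18A and MRPS30 as large, MRPS36 left out). The mean gap of ASO-L1 was then 0.075 over ASO-Ctr and 0.082 over sO-L1, and that of sO-L1 over ASO-Ctr was -0.007. In numbers 1 to 4 this gap was 0.1, 0.112, 0.06 and 0.028 against ASO-Ctr. Against sO-L1 it was 0.094, 0.106, 0.129 and 0.0, so number 4 had almost none. The large subunit genes at 5 CPM or more differed by -0.010, 0.167, 0.127 and 0.078 against ASO-Ctr and the small subunit genes by -0.113, 0.057, 0.047 and 0.002, so in number 1 both were below 0. In single libraries, the mean log2 CPM of large minus small subunit genes was 0.146, 0.088, 0.087 and 0.037 in ASO-L1, 0.047, -0.021, -0.03 and 0.019 in sO-L1, and 0.042, -0.017, 0.034 and 0.003 in ASO-Ctr. Each ASO-L1 library was above both libraries of its own number, while the groups as a whole overlap through ASO-L1 replicate 4. The gap corresponds to a few percent and is a description of these genes, with no test.

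**Figure D3:**
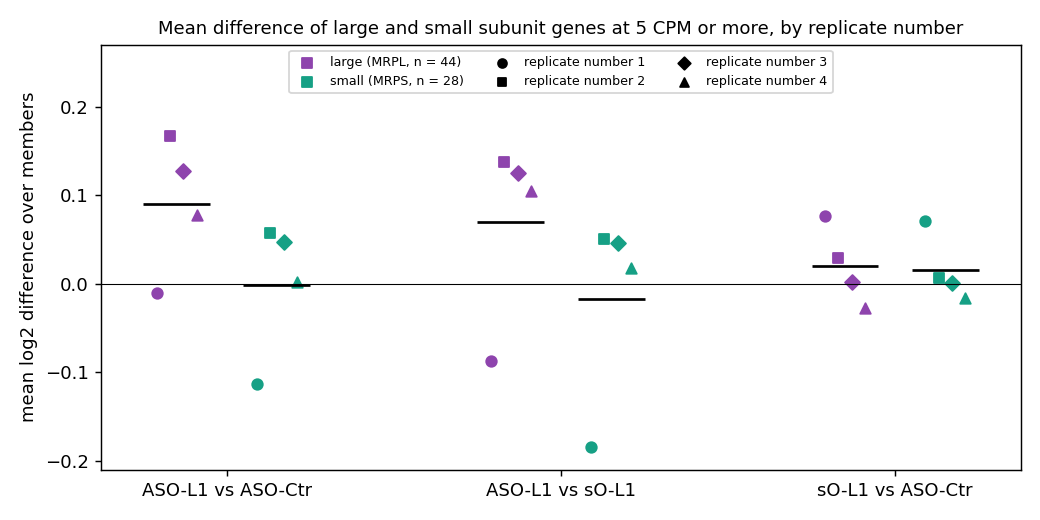
Mean log2 difference of the genes with a mean of at least 5 CPM, large subunit (44 genes) beside small subunit (28 genes), for the 3 comparisons. Each point is 1 replicate number and black lines are the means of 4. In both comparisons of ASO-L1 the large subunit lies above the small one within each number, by 0.076 to 0.11 against ASO-Ctr. Number 1 is lowest. The limit of 5 CPM was chosen after seeing the data. Over all tested genes the gap was 0.034 to 0.106 against ASO-Ctr and 0.018 to 0.117 against sO-L1.

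The second comparison set the antisense against the sense oligonucleotide. In ASO-L1, 19 of 46 large subunit genes were higher than in sO-L1 (41.3%) and 4 lower (8.7%), and of the small subunit genes 7 of 29 were higher (24.1%) and 6 lower (20.7%), against 21.1% higher and 22.9% lower of all genes (edgeR). With the 2 controls side by side, 21 genes were higher against both, which is 84% of those higher against ASO-Ctr and 80.8% of those higher against sO-L1, and 9 were lower against both (100% and 90%). Of all genes tested 17.7% were higher and 19.4% lower against both. Over all genes called the shares were 83.3% and 83.9% for higher and 84.1% and 84.6% for lower genes, and ASO-L1 is common to the comparisons, so this overlap is no independent evidence. MRPL20 was 1.39-fold higher than in sO-L1 (1.3 to 1.49), MRPL47 1.3-fold (1.21 to 1.39), MRPL2 1.28-fold (1.15 to 1.43) and MRPS5 1.22-fold (1.15 to 1.31). MRPL1 was 1.64-fold lower (1.47 to 1.83), MRPS28 1.51-fold (1.28 to 1.77), MRPS11 1.26-fold (1.14 to 1.38) and MRPS35 1.25-fold (1.15 to 1.37).

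Against 1 control only, 10 genes passed. MRPL15, MRPL27, MRPL43 and MRPS23 were higher against ASO-Ctr only, MRPL21, MRPL34, MRPL38, MRPL53 and MRPS26 were higher against sO-L1 only, and MRPL19 was lower against sO-L1 only. Whether the 2 differences of such a gene are unequal was not tested. MRPL19 (bL19m) measured 85.4 ± 2.76 CPM in ASO-L1, 97.5 ± 4.55 in sO-L1 and 91.8 ± 6.61 in ASO-Ctr, lower against sO-L1 (adjusted p 0.00345 in edgeR) and not called against ASO-Ctr (adjusted p 0.0857). MRPL53 measured 2.16 ± 0.269 CPM in ASO-L1, 1.52 ± 0.233 in sO-L1 and 1.92 ± 0.359 in ASO-Ctr, 1.43-fold higher than in sO-L1 (1.12 to 1.83, adjusted p 0.0189 in edgeR), on few reads. MRPL38 was 1.3-fold higher (1.06 to 1.6, adjusted p 0.0367 in edgeR) and was called in 5 of 16 leave-outs. MRPL53 was called in 7 of 16. The surplus of higher genes over the background again depended on single libraries. Without replicate number 2, 5 of 46 large subunit genes were higher (10.9%, against 16.3% of all genes). Without number 3, 7 were (15.2%, against 16%). Without ASO-L1 replicate 2, 6 were (13%, against 17.5%), and without sO-L1 replicate 2, 8 were (17.4%, against 17.2%). Without ASO-L1 replicate 1, 24 were (52.2%, against 20.5%).

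The third comparison, between the 2 control oligonucleotides, called none of the 75 genes. In edgeR 0 were called at an adjusted p under 0.05 and 0 had an unadjusted p under 0.05, against 7.14% of all genes. DESeq2 gave 0 and 0. At an unadjusted p under 0.05 limma on the deposited log2 values gave 4 members, edgeR with only these 2 groups 6, and edgeR without ASO-L1 replicate 1 counted 7. Of all genes 0.29% were called (0.0695% higher and 0.22% lower in sO-L1), so 0 of 75 is near the background. The median log2 fold change was 0.015 for large and 0.026 for small subunit genes. The fold of sO-L1 over ASO-Ctr was 1.01 for MRPL20 (0.942 to 1.08), 1.05 for MRPL1 (0.945 to 1.17), 0.953 for MRPS28 (0.815 to 1.11) and 1.05 for MRPS5 (0.98 to 1.12). The intervals exclude the folds that these genes had in ASO-L1 over ASO-Ctr.

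Promoter motifs were then set beside the calls of ASO-L1 against ASO-Ctr. Of the 23 higher genes with a promoter, 11 had the ETS motif, among them MRPL20, MRPL47, MRPL40 and MRPS21. Of the 8 lower genes with a promoter 0 had it, and of the 35 not called 16 did. The YY1 motif was in 4 of 23 higher, 0 of 8 lower and 9 of 35 genes not called. Over the promoters of all genes tested, called or not, 15.2% held the ETS motif and 3.06% the YY1 motif. Motif shares among all higher or all lower genes were not counted. The counts are of exact letters and are a description, with no test.

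The lower genes spanned more DNA than the others. The median span of the principal transcript was 62 kb for the 9 lower genes, 7.94 kb for the 25 higher genes and 7.97 kb for the 41 not called. Over 40 kb were 6 of 9 lower genes (MRPL1, MRPS28, MRPS27, MRPS6, MRPS9 and MRPS35), 3 of 25 higher genes and 3 of 41 not called. MRPS22 and MRPL42, which are 2 of the 3 long higher genes, also have a shorter principal transcript, of 13 and 34.1 kb, which leaves MRPL48 (77.3 kb) as the 1 higher gene over 40 kb. MRPL17, MRPL44 and MRPS11 fell while spanning 2.62, 10.3 and 13.3 kb.

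Long genes were more often lower over all genes as well. Among the 14496 genes with a span, split by span into 5 groups of equal size, 25.2% of the shortest group (up to 7.36 kb) were higher in ASO-L1 than in ASO-Ctr and 12.7% lower, with a median log2 fold change of 0.07. In the longest group (84 kb and more) 9.8% were higher and 46.9% lower, with a median of -0.21. Of the 75 mitochondrial ribosomal protein genes 33 were in the shortest group, of which 12 were higher and 1 lower, and 4 were in the longest, of which 1 was higher and 3 lower. Spearman's rho of span and log2 fold change was -0.2 over 75 members and -0.26 over all genes, given as a description across genes that share libraries. The part of gene span in the calls was not tested.

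**Figure D4:**
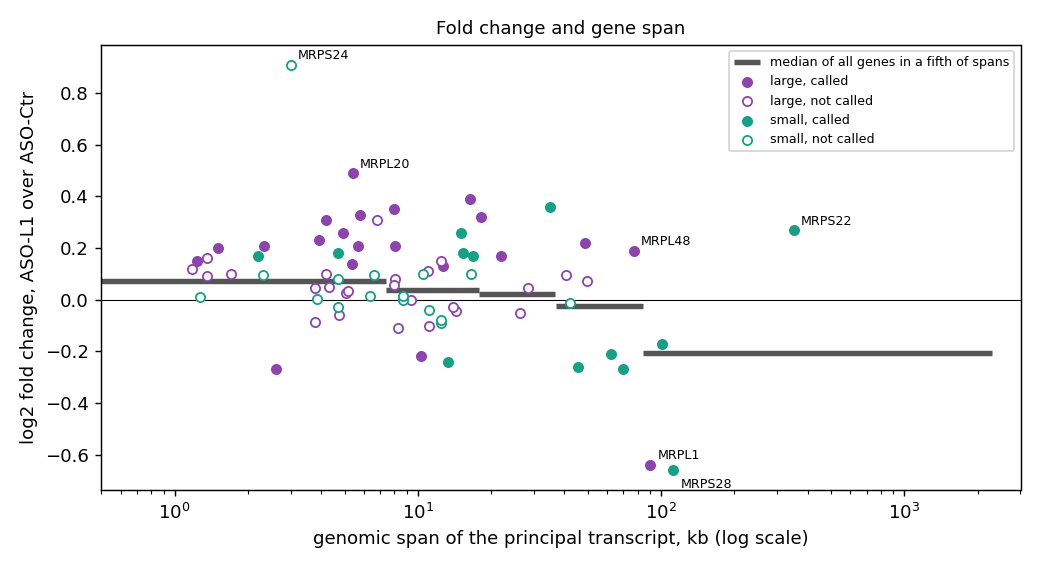
Log2 fold change of ASO-L1 over ASO-Ctr against genomic span of the principal transcript (kb, log scale) for the 75 tested genes, filled where called. Grey bars are medians of all genes in 5 equal groups by span, down to -0.21 in the longest group. MRPL1 and MRPS28, at 90.3 and 112 kb, lie lowest.

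Other genes of mitochondrial translation were also counted in ASO-L1 against ASO-Ctr, where 21.2% of all genes were higher and 23.1% lower. Of 7 mitochondrial ribosomal proteins with other symbols, 4 were higher (57.1%) and 1 lower (14.3%). MRP63 (mL63, also MRPL57) measured 40.7 ± 1.44 CPM in ASO-L1 and 32.5 ± 1.06 in ASO-Ctr, 1.25-fold higher (1.16 to 1.35, adjusted p 6.73e-05 in edgeR). GADD45GIP1, AURKAIP1 and PTCD3 had log2 fold changes of 0.25, 0.20 and 0.15. DAP3, a GTP-binding protein of the small subunit, measured 72.5 ± 7.38 CPM in ASO-L1 and 81.4 ± 1.38 in ASO-Ctr, 1.12-fold lower (1.04 to 1.22, adjusted p 0.0215 in edgeR). CHCHD1 and ICT1 were not called, at log2 fold changes of 0.01 and 0.05.

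Of 23 assembly factors 8 were higher (34.8%, against 21.2% of all genes) and 2 lower (8.7%, against 23.1%), with FTSJ2, a ribosomal RNA methyltransferase, at 0.36, NGRN at 0.42 and RPUSD4, a pseudouridine synthase, at 0.26, and with FASTKD2 at -0.37 and METTL15 at -0.18 (log2 fold changes). Against sO-L1, 5 of the 23 were higher (21.7%, against 21.1% of all genes). Of 17 translation factors 7 were higher (41.2%) and 1 lower (5.88%). LRPPRC, which stabilises mitochondrial mRNAs together with SLIRP, measured 966, 826, 836 and 804 CPM in ASO-L1 and 569, 642, 642 and 648 in ASO-Ctr, without overlap, 1.37-fold higher (1.26 to 1.49, adjusted p 6.86e-06 in edgeR). SLIRP and TACO1, a translational activator, were at 0.30 and 0.23, and MTFMT, which formylates the initiator tRNA, at -0.24. Of 16 factors for mitochondrial DNA and RNA 7 were higher (43.8%) and 2 lower (12.5%), with the helicase SUPV3L1 at 0.37, the RNA polymerase POLRMT at 0.27 and PNPT1 at 0.22, and with KIAA0391 and TRMT10C, parts of mitochondrial RNase P, at -0.42 and -0.16.

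Of the 13 mitochondrially encoded mRNAs, which these ribosomes translate, 0 were higher and 3 lower than in ASO-Ctr (23.1%, against 23.1% of all genes). Against sO-L1, 1 was higher and 5 lower (38.5%, against 22.9% of all genes), and the higher one was MT-ND1, a subunit of complex I, with a log2 fold change of 0.18 (adjusted p 0.0258 in edgeR) against sO-L1 and 0.14 (adjusted p 0.0794) against ASO-Ctr. MT-CYB, cytochrome b, measured 3800 ± 177 CPM in ASO-L1, 4400 ± 164 in sO-L1 and 4330 ± 158 in ASO-Ctr, 1.14-fold lower than in ASO-Ctr (1.09 to 1.2, adjusted p 0.000197 in edgeR). MT-ND6 and MT-ATP6 had log2 fold changes of -0.20 and -0.08 against ASO-Ctr. The mean log2 difference of the 13 against ASO-Ctr was -0.074, -0.052, -0.061 and -0.117 in replicate numbers 1 to 4. All mitochondrially encoded genes took 5.59% to 6.48% of counts over the 12 libraries.

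Of 10 regulators of mitochondrial biogenesis 6 were higher in ASO-L1 than in ASO-Ctr (60%, against 21.2% of all genes) and 2 lower (20%, against 23.1%). PPARGC1A, a coactivator, measured 13.7, 7.74, 8.66 and 8.37 CPM in ASO-L1 and 5.44, 4.15, 5.48 and 5.13 in ASO-Ctr, 1.87-fold higher (1.56 to 2.24, adjusted p 1.71e-05 in edgeR), with replicate 1 highest. NRF1, an activator of many mitochondrial genes, measured 16.9, 18.4, 17.5 and 22.7 CPM in ASO-L1 and 25.8, 25.6, 27.6 and 29.1 in ASO-Ctr, 1.43-fold lower (1.3 to 1.58, adjusted p 1.08e-05 in edgeR). YY1 had a log2 fold change of -0.13 (adjusted p 0.0124 in edgeR). Of 10 mitochondrial stress genes 6 were higher (60%) and 0 lower, with ATF5, a transcription factor of the stress response, at 2.55 and the chaperone HSPA9 and protease LONP1 at 0.48 and 0.44.

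Cytosolic ribosomal protein genes differed more often in the same direction. Of the 80 tested, 55 were higher (68.8%) and 3 lower, with a median log2 fold change of 0.18, and their mean difference was 0.057, 0.273, 0.148 and 0.139 in replicate numbers 1 to 4, where number 1 was again the lowest and number 2 the highest. Processed pseudogenes make single values of that family uncertain. Over the 12 libraries centred on their replicate number, the genes whose log2 CPM was most like the mean of the large subunit genes were RPS24 (Pearson r 0.991), ATP5L (0.983), RPL31 (0.983), RPL32 (0.982) and SSR2 (0.98). For the small subunit mean they were LTA4H (0.974), NOP10 (0.972), CDK4 (0.952), ARL2 (0.945) and TXN2 (0.934). These values describe likeness among all genes tested over libraries that share groups, with no test.

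**Figure D5:**
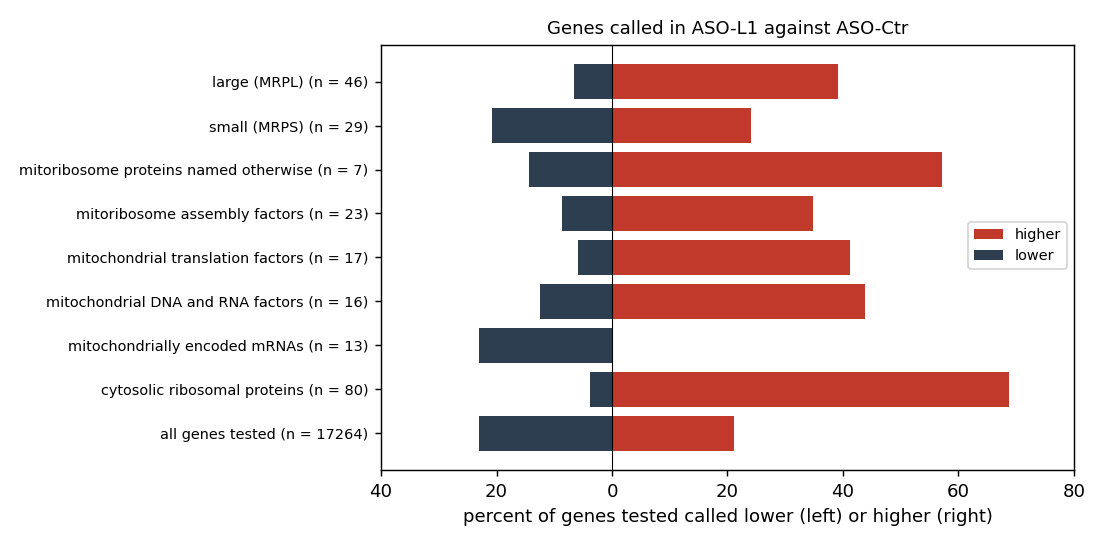
Percent of tested genes called higher (right of 0) or lower (left) in ASO-L1 against ASO-Ctr (edgeR, adjusted p under 0.05) for the large and small subunit genes, 6 other gene lists and all genes tested. Large subunit genes have 39.1% higher and 6.52% lower, small subunit genes 24.1% and 20.7%, cytosolic ribosomal protein genes 68.8% and 3.75%, and all genes 21.2% and 23.1%.

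In the authors' deposited table of ASO-L1 against sO-L1, all 76 genes are listed, with 12 of 47 large subunit genes higher and 4 lower and 4 of 29 small subunit genes higher and 6 lower at an adjusted p under 0.05. Of all 20856 genes in the authors' deposited table, 16.1% were higher and 16.7% lower by the same limit. The authors' deposited table gives MRPL20 a log2 fold change of 0.48 and MRPL1 one of -0.70.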

How the data were processed

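Poly(A) RNA was made into strand-specific libraries, per the labels' protocols. Of the 3 deposited tables, the one tested holds whole-number counts of reads for each gene, made by the authors after removing duplicates, per the labels. The submitters' processing notes name Trim Galore 0.4.0, TopHat2 2.0.13, featureCounts of Subread 1.5.0 and the build hg19. The annotation and the strand setting of the counting are not given in the sources used here, so overlapping genes may share reads, and removing duplicates can lower the counts of abundant genes. The authors also deposited log2 normalized values, labelled as batch corrected, and their own comparison of ASO-L1 with sO-L1. From the authors' deposited comparison only the log2 fold change and adjusted p-value were used, and not its scores (a moderated statistic and log odds).

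The count test was edgeR 4.0.16 in R 4.3.3: TMM scaling, filterByExpr (minimum count 10) and a two-sided quasi-likelihood test, fitted to all 3 groups together and blocked by replicate number. Values were adjusted by Benjamini-Hochberg over 17264 genes, with calls at an adjusted p under 0.05, and 95% intervals use the t distribution with 16.8 degrees of freedom. Differences within a number are of log2 CPM with a prior count of 2. A count of 3 is 0.0545 to 0.131 CPM. The block was kept because libraries of equal number deviated together: the 12 such pairs correlated at r 0.216 to 0.725 over 10549 genes (mean count 200 or more), above the threshold of 0.1, against a median of -0.223 for unequal numbers. Each gene was centred on its group mean, which makes correlations of unequal numbers negative on average where those of equal numbers are positive. The -0.223 therefore adds no support for the block. Replicates differed by more than counting error in all 18 pairs within groups. On simulated counts of ASO-L1 against ASO-Ctr, 30.6% of 1.2-fold and 70.4% of 1.5-fold changes were called, with 7 false calls among 17008 genes. The simulation changed few genes, gave all genes a common spread and added no replicate effect, unlike the data. Its shares therefore do not give the power for the members. A gene not called may still differ by the sizes seen here.

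The members, lists and tests were chosen with earlier results of these data known. Named were, for each comparison of ASO-L1, the 6 largest called increases and decreases with 1 direction in all 4 numbers, 18 members picked for their role, members under the filter, up to 3 called genes per direction of each other list, and the 5 genes most like each subunit's mean; others were named after their values were seen. Spans and lengths are from GENCODE v29 (principal transcript, else the longest), found for 84% of genes tested; its build is not hg19, so no coordinates were taken from it. Alternatives were no replicate block, DESeq2 1.42.0, other scalings, no filter, limma 3.58.1 on the deposited log2 values, only the 2 groups compared, and leaving out each library and each replicate number.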

Additional observations from a re-analysis of the deposited data

Results flagged for a closer look

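Among 234 sets of 4 libraries (75 members tested and 3 subunit summaries, in 3 groups), 14 had 1 library far from the other 3. That is about the 1 in 20 that chance gives. Members share libraries, so the sets are not independent, and this nearness does not show how the flags arose. In ASO-L1, replicate 1 was low for MRPL44 at 51.4 CPM (others 61.0 to 62.8), MRPS15 at 63.0 (72.8 to 74.6) and MRPS18B at 43.4 (50.4 to 51.8). Replicate 3 of ASO-L1 was high for MRPL18 at 95.3 CPM (86.3 to 87.7) and MRPL4 at 56.9 (52.8 to 53.1), and replicate 2 was low for MRPL40 at 22.7 (24.4 to 24.7). In sO-L1, replicate 1 was high for MRPS21 at 139 CPM (121 to 123) and MRPL51 at 119 (105 to 107), and replicate 2 was low for MRPS5 at 61.5 (66.4 to 67.3). In ASO-Ctr, replicate 2 was low for MRPL33 at 19.5 CPM (23.3 to 23.8), MRPL47 at 70.2 (79.6 to 81.2), MRPL49 at 76.3 (84.1 to 84.5) and MRPS26 at 59.7 (66.5 to 67.1), and replicate 1 was high for MRPL28 at 83.4 (70.2 to 71.7).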

How the results depend on the processing

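The median of the members and the large minus small difference moved by less than their spread between replicate numbers under every alternative run, and no called value turned its direction. Without the replicate block, 20 members were higher and 8 lower in ASO-L1 against ASO-Ctr, beside 16.4% and 17.7% of all genes. Against sO-L1, 13 (instead of 26) were then higher and 7 lower, beside 16.3% and 17.2% of all genes. By subunit, 21.7% of large and 10.3% of small subunit genes were higher than in sO-L1 without the block. With no filter on low counts, 17 members were higher against sO-L1, beside 9.95% of all genes. With only the 2 groups compared the count was also 17, beside 18.6% of all genes. The count of all genes called between sO-L1 and ASO-Ctr, 50, became 17 without the replicate block, 95 with DESeq2, 141 with no filter, 137 with limma on the deposited log2 table and 640 with only the 2 groups; no member was called in any of these. Leaving out a library or a replicate number gave 13 to 36 members higher and 8 to 10 lower against ASO-Ctr. Of all genes 15.9% to 21.5% were then higher and 17.5% to 23.5% lower. Against sO-L1, 8 to 37 members were higher and 7 to 10 lower, beside 16% to 21.2% and 17.3% to 23.6% of all genes. Between sO-L1 and ASO-Ctr, 10 to 410 of all genes were called. Each refit had fewer libraries, and the cause of these ranges was not tested. In the same refits the large minus small difference was 0.055 to 0.092 against ASO-Ctr, 0.074 to 0.112 against sO-L1 and -0.038 to -0.004 for sO-L1 against ASO-Ctr. Of the refits of single named members, 77 lost a call and 13 gained one against ASO-Ctr, and 178 and 12 against sO-L1. Few reads limit MRPS24, MRPL53, MRPL38 and MRPL30, and the parts of depth and of exon bases shared with other genes in this were not tested.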
